A study of Mus musculus with 2 samples.

Results

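The peptide precursor genes examined here were Npy, Penk, Cartpt, Gal, Calca, Adm, Vip, Nppc, Tac1 and Resp18, a list of secreted peptide and granule protein genes associated with the chromaffin cells of the adrenal medulla. All transcript models carrying one of these 10 gene names were taken from both libraries, which gave 18 models in replicate 1 and 23 in replicate 2, out of 107755 and 137106 models in all. The genes were 10 of the 18580 annotated genes with reads in either library. Reads were found for 8 of them in replicate 1, for 9 in replicate 2, and for 7 in both. The libraries were made from total RNA of whole adrenal gland of 10-day-old males of the hybrid mouse strain B6CASTF1/J, and were read by long-read RNA sequencing, in which a read follows a transcript over several exons. There was 1 group with 2 biological replicates, no treatment or altered allele was named, spike-in RNA was added to both libraries, and a starting amount of 1 µg was given for replicate 2 alone. The labels gave both libraries the same donor and named the animal of replicate 2 in different ways, so that separate animals could not be told from a shared one. Reads were not separated by parental allele.

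Chromaffin cells store catecholamines in dense-core granules together with peptides, which are released with them on stimulation by the splanchnic nerve. The peptides are cut from longer precursors by prohormone convertases at pairs of basic residues, trimmed by carboxypeptidase E, and in many cases amidated at a C-terminal glycine by the enzyme encoded by Pam. NPY, the enkephalins made from Penk, and galanin are long known from the medulla. Adrenomedullin (Adm), CGRP (Calca), VIP (Vip), substance P (Tac1) and C-type natriuretic peptide (Nppc) are also found in vessel cells or nerve fibres of the gland.

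Replicate 1 held 927914 reads on annotated genes and replicate 2 held 1303420, and levels are given as CPM, the reads per 1000000 such reads. A long read stands for 1 transcript, so the reads of a gene were not divided by its length. A count of 0 still allows 3 reads by a 1-sided limit, which is 3.23 CPM for replicate 1 and 2.30 CPM for the deeper replicate 2. Intervals in parentheses are exact Poisson intervals for levels and Clopper-Pearson intervals for shares, at 95%, and like this limit they cover counting error only. For 0 reads the Poisson interval, which is not 1-sided, reaches 3.98 CPM in replicate 1 and 2.83 CPM in replicate 2. All 16 chromaffin cell markers, among them Th, Dbh, Pnmt and Chga, had reads in both libraries, and they summed to 13715 CPM and 6954 CPM. Liver markers such as Alb and Ahsg summed to 8718 CPM and 25062 CPM, erythroid markers to 1106 CPM and 3754 CPM, and endothelium markers to 602 CPM and 372 CPM. In these bulk samples, fewer cells of a type and less RNA per cell cannot be told apart.

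The 10 genes together took 314 reads in replicate 1 and 817 in replicate 2, or 338 CPM and 627 CPM (483 ± 204 CPM, mean ± SD, n = 2 here and below). Npy alone made up 50% (44.3 to 55.7) of these reads in replicate 1 and 75.0% (71.9 to 78) in replicate 2. The other 9 genes together stood at 169 CPM and 157 CPM, a mean of 163 ± 8.97 CPM. The difference in the sum between the libraries therefore lay in Npy. By mean level the order was Npy, Resp18, Penk, Adm, Gal, Cartpt, Vip, Nppc, Tac1 and Calca. Npy stood above the next gene with no overlap of the counting intervals in either library. Resp18 and Penk, Penk and Adm, and Gal and Cartpt overlapped in both libraries, and Resp18 and Penk also changed places between them. Adm stood above Gal without overlap in replicate 1, while in replicate 2 their order was the opposite and their intervals overlapped. Cartpt was separated from Vip in replicate 2 only, and the last 4 genes could not be ordered.

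**Figure D1:**
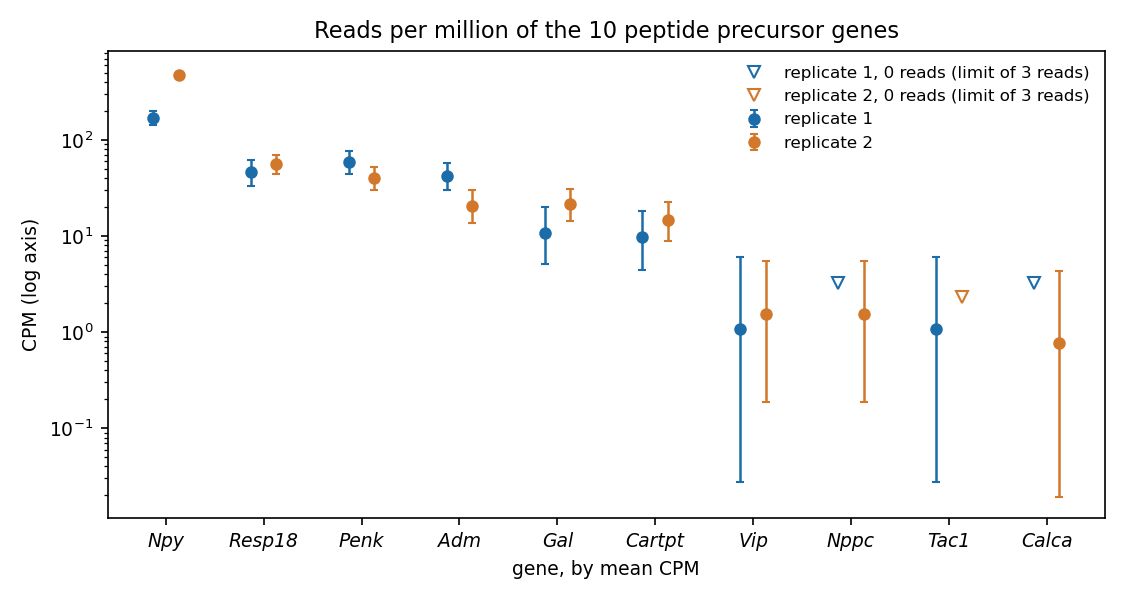
Level of each of the 10 genes in each library, in CPM on a log axis, with exact Poisson 95% intervals as bars and open triangles at the limit of 3 reads where a gene had 0 reads. Npy (169 and 470 CPM) lay above the 5 genes between 9.70 and 58.2 CPM, and the last 4 genes lay at 1.53 CPM or below.

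Npy encodes neuropeptide Y, a vasoconstrictor peptide of sympathetic neurons and chromaffin cells. It lies on chromosome 6 of mm10, at chr6:49822710-49829507 on the plus strand, with 1 annotated transcript of 4 exons, 566 nt and 97 codons. It had 157 reads in replicate 1, or 169 CPM (144 to 198), and 613 reads in replicate 2, or 470 CPM (434 to 509). Its mean of 320 ± 213 CPM ranked 525 among all genes with reads. The chromaffin markers nearest to it in level over the libraries were Cyb561, the electron carrier of the granule membrane, at 566 CPM and 250 CPM, Dbh, which makes noradrenaline, at 295 CPM and 133 CPM, and Pnmt, which makes adrenaline, at 639 CPM and 707 CPM. The distances were 1.97, 1.99 and 2.01 in log2 CPM over both libraries, so none of the markers was close. Per 1000 reads of the 16 chromaffin markers, Npy had 12.3 reads in replicate 1 and 67.6 in replicate 2.

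The annotated Npy transcript took 138 of the 157 reads and 494 of the 613 reads. A shorter model that begins with the second exon and so lacks the non-coding first exon took 16 and 109 reads. It kept the whole coding sequence, and models that kept it took 98.1% (94.5 to 99.6) of all Npy reads in replicate 1 and 98.5% (97.2 to 99.3) in replicate 2. The remaining models kept introns, used an unannotated splice site or were single exons at the 3′ end of the gene, with at most 5 reads each. The first intron was spliced out in 139 of 156 spliced reads and 494 of 608, and reads of the shorter model do not reach it.

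Penk encodes proenkephalin, the precursor of the opioid enkephalins, which are stored with catecholamines in chromaffin granules. It lies at chr4:4133531-4138819 on the minus strand and has 2 annotated transcripts. Penk had 54 reads in replicate 1, or 58.2 CPM (43.7 to 75.9), and 52 reads in replicate 2, or 39.9 CPM (29.8 to 52.3), a mean of 49.0 ± 12.9 CPM. The nearest chromaffin markers in level were the vesicle protein gene Syp at 61.4 CPM and 36.8 CPM (distance 0.14), the SNARE gene Snap25 at 32.3 CPM and 23.0 CPM (1.16), and Slc18a2, the vesicular monoamine transporter, at 39.9 CPM and 17.6 CPM (1.30).

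Almost no Penk read matched an annotated transcript. In replicate 1, 3 of 54 reads (5.56%, 1.16 to 15.4) were Penk-201, which has 2 exons, and in replicate 2 none of 52 was (0%, upper bound 6.85). The other 51 reads of replicate 1 and 50 of replicate 2 formed a 3-exon chain with an intron that is absent from the annotation. This intron, chr4:4138147-4138634 with 488 bases, was found in 94.4% (84.6 to 98.8) of 54 spliced reads and 100% (92.9 to 100) of 50. Its first base is that of the first intron of the annotated Penk-202, and its end lies 1 base before that of the Penk-202 intron, so that the second exon is 141 bases long by the reads and 140 in Penk-202. The second intron, chr4:4134508-4138005, was the annotated one in all 104 spliced reads. Both 3-exon models contained the whole coding sequence of Penk-201, 268 codons, which starts just behind the shifted acceptor.

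The splice sites of the unannotated Penk intron are shown because the choice of base decides whether a Penk read matches the annotation. They were read 5′ to 3′ on the minus strand from the transcripts of GENCODE M21 (mm10), the donor from the overlapping antisense transcript as its reverse complement, at chr4:4138621-4138648, and both acceptor lines at chr4:4138133-4138160. Capitals mark the first 2 bases of the intron at the donor and its last 2 bases at the acceptor.
Penk donor, shared by the reads and Penk-202: ggagcaacggcagcGTgagtgactttgc
Penk acceptor by the reads: cttctctcctacAGcccatggcgcggtt
Penk acceptor by Penk-202: cttctctcctacaGCccatggcgcggtt
By the reads the intron began with GT and ended with AG, the pair found at most introns of vertebrate genes, and by Penk-202 it ended with GC. The joined exons are shown next, with the base that Penk-202 lacks in capitals. They were built from the annotated transcripts at the positions of the models, not from sequences of single reads. The junctions differ only in the length of a run of C, and how single reads were placed there was not tested.
Penk junction of the reads: ggagcaacggcagcCccatggcgcggtt
Penk junction of Penk-202: ggagcaacggcagcccatggcgcggtt
The next comparison was chosen after these values were seen. Over all annotated genes, 357 unannotated introns had 10 or more reads in both libraries, and the Penk intron was the 1 among them with an annotated donor and an acceptor 1 base from an annotated one. Penk was also 1 of 3 among 6342 genes with at least 20 reads per library (0.0473%) in which models with an unannotated splice site took 90% or more of the reads in both. The median gene had 2.94% and 2.48% of its reads in such models.

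**Figure D2:**
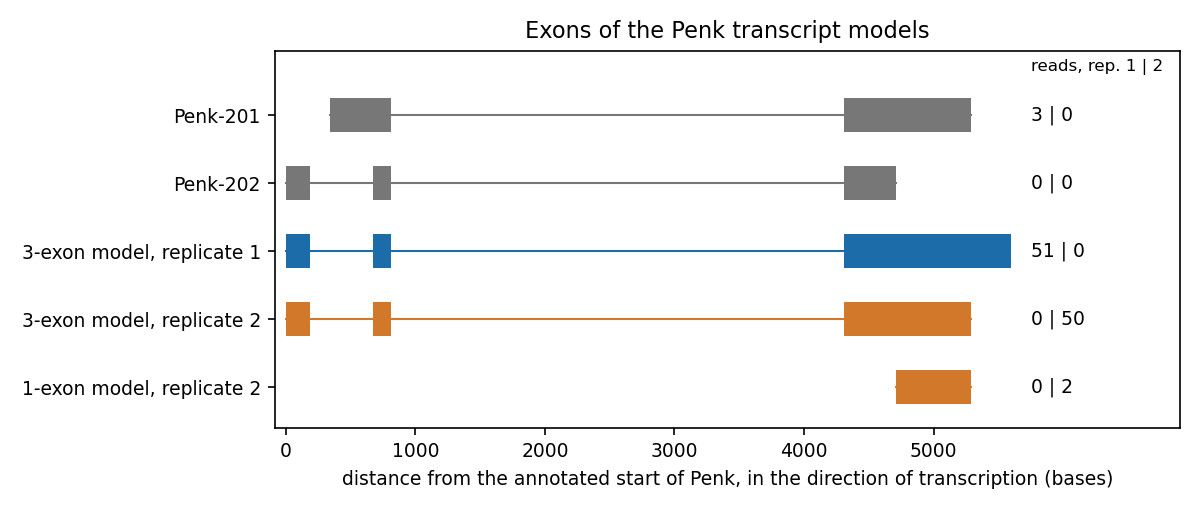
Exons (boxes) and introns (lines) of the Penk transcript models, as distance in bases from the annotated start of the gene in the direction of transcription, with the reads of each model in replicates 1 and 2 at the right. Annotated models are grey, models of replicate 1 blue and of replicate 2 orange. The 3-exon models with 51 and 50 reads share all introns and differ in where the last exon ends, with 1282 and 977 bases.

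Penk codes for several copies of the enkephalin pentapeptide in 1 precursor. A search of the Penk-201 coding sequence, in frame, for the codons of tyrosine, glycine, glycine, phenylalanine and then methionine or leucine found 7 copies, 6 of Met-enkephalin and 1 of Leu-enkephalin, in 6 distinct sequences of 15 bases. At least 1 such copy was present in 3 of 6939 genes (0.0432%) with a coding sequence of 90 to 270 codons. The copies are shown because they are the parts of the precursor that a Penk read carries, with the last codon in capitals and the first codon of each copy counted from the start codon.
Copy 1, Met-enkephalin, codon 100: tacggaggcttcATG
Copy 2, Met-enkephalin, codon 107: tacggaggcttcATG
Copy 3, Met-enkephalin, codon 136: tatggcggcttcATG
Copy 4, Met-enkephalin, codon 187: tatgggggcttcATG
Copy 5, Met-enkephalin, codon 211: tacgggggcttcATG
Copy 6, Leu-enkephalin, codon 231: tatgggggcttcCTG
Copy 7, Met-enkephalin, codon 262: tacgggggctttATG
The copies lie between chr4:4133848-4134348, all in the last exon, and 5 of them had 2 codons of lysine or arginine on both sides. All 104 spliced Penk reads belong to models that hold the 7 copies, though a single read may end short of its model, which the files do not show. The remaining 2 Penk reads, in replicate 2, formed a single-exon model at chr4:4133531-4134112 that holds 4 copies and no start codon of the precursor.

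Gal encodes the precursor of galanin, an inhibitory neuropeptide, and lies at chr19:3409915-3414544 on the minus strand. It had 10 reads in replicate 1, or 10.8 CPM (5.17 to 19.8), and 28 reads in replicate 2, or 21.5 CPM (14.3 to 31.0), a mean of 16.1 ± 7.57 CPM. The annotated transcript Gal-202 took 10 of 10 and 26 of 27 reads of annotated transcripts, 97.3% (85.8 to 99.9) over both libraries, and Gal-201 took the other 1. These transcripts use acceptors of the last intron that differ by 2 bases, which gives 124 codons in Gal-202 and 141 in Gal-201. The joined exons at chr19:3410149-3411140 (GENCODE M21, mm10) are printed 5′ to 3′ with the bases that Gal-201 lacks in capitals.
Gal-202: tgcaccttaaagAGgccggggccctcgac
Gal-201: tgcaccttaaaggccggggccctcgac

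Cartpt encodes the CART prepropeptide, a peptide of neurons and endocrine cells that acts on feeding and stress responses, and lies at chr13:99898489-99901091 on the minus strand. It had 9 reads in replicate 1, or 9.70 CPM (4.44 to 18.4), and 19 in replicate 2, or 14.6 CPM (8.78 to 22.8), a mean of 12.1 ± 3.45 CPM. Both annotated isoforms were read. Cartpt-202, with the short form of the precursor of 116 codons, took 6 of 8 and 13 of 18 reads of annotated transcripts, and Cartpt-201, with the long form of 129 codons, took 2 and 5. The short form thus had 75% (34.9 to 96.8) in replicate 1 and 72.2% (46.5 to 90.3) in replicate 2, and both intervals hold an even split. With the reads of both libraries pooled it had 19 of 26 such reads, 73.1% (52.2 to 88.4). Both libraries gave more reads to the short form than to the long form. The forms differ by 39 coding bases at the start of the second exon, chr13:99900041-99900079, which are in capitals below, in the joined exons at chr13:99900029-99900487 (GENCODE M21, mm10, 5′ to 3′).
Cartpt-201: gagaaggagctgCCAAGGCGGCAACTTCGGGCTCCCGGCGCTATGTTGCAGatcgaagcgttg
Cartpt-202: gagaaggagctgatcgaagcgttg

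Resp18 encodes a protein of endocrine secretory granules that is found through the early secretory pathway, and lies at chr1:75272199-75278415 on the minus strand. It had 43 reads in replicate 1, or 46.3 CPM (33.5 to 62.4), and 73 in replicate 2, or 56.0 CPM (43.9 to 70.4), a mean of 51.2 ± 6.83 CPM, and its intervals overlapped widely. Of its 4 annotated transcripts, the one with 6 exons and 175 codons took 42 and 67 of these reads, and no other annotated transcript was read. Models that lacked the first exons took 4 reads in replicate 2.

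Adm encodes the precursor of adrenomedullin, a vasodilator peptide first isolated from a tumour of chromaffin cells and also made by endothelium, and lies at chr7:110627661-110629820 on the plus strand. It had 39 reads in replicate 1, or 42.0 CPM (29.9 to 57.5), and 27 in replicate 2, or 20.7 CPM (13.7 to 30.1), a mean of 31.4 ± 15.1 CPM. Adm-201, with 4 exons and 184 codons, took 37 and 23 of these reads. In replicate 2, 4 reads formed a single-exon model over the whole gene, with every intron kept. Antisense genes overlap Penk (A830012C17Rik), Adm (Gm28863) and Resp18 (Gm28902), and each had 0 reads in both libraries.

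The remaining 4 genes had at most 2 reads in either library. Vip had 1 and 2 reads, Nppc 0 and 2, Tac1 1 and 0, and Calca 0 and 1. The highest of these values was 1.53 CPM, and the upper ends of the counting intervals reached 6.004 CPM (Vip and Tac1 in replicate 1). The reads of Vip, Nppc and Tac1 were assigned to spliced annotated transcripts with coding sequences of 171, 126 and 130 codons. The Calca read was not spliced. It covered 118 bases at chr7:114633293-114633410 in the last exon of Calca-202, the transcript that codes for calcitonin, so that neither the calcitonin nor the CGRP splice form of Calca was read in full. Of the 10 sensory neuron markers, 7 had reads and summed to 63.6 CPM and 98.2 CPM, while Trpv1, Scn9a and Scn10a, which mark nociceptors, had 0 reads in both libraries.

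Replicate 2 was compared with replicate 1 to learn how far the levels of these genes repeat between libraries of the same group. The reads of each gene were set against those of all other genes in a Fisher's exact test (two-sided), for the 11650 genes whose reads in both libraries summed to 10 or more, with Benjamini-Hochberg adjustment over these genes. Such p-values compare these 2 libraries and measure only counting error. Of the 10 genes, 6 were tested: Npy was higher in replicate 2, Adm was lower, and 4 did not pass the threshold of 0.05. Of all tested genes 13% were called higher and 22.2% lower, 1510 and 2581 genes, and with the TMM factors of edgeR 1973 and 1331 genes. Calls of this kind were thus common. The median log2 ratio was 0.41 for the 6 genes and -0.25 for all genes tested. Against the ratio that transcript length gives, described next, the order turned, with -0.15 for the 6 genes and -0.02 for all genes. Against that ratio 1502 of all 11650 genes were called higher and 1269 lower.

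Npy was 2.78-fold (2.33 to 3.33) higher in replicate 2, a log2 ratio of 1.47 with an adjusted p of 7.23e-34 in Fisher's exact test. The ratio fell with transcript length over the range of the peptide genes, and the mean model length of a read was 2335 nt in replicate 1 and 1904 nt in replicate 2. For a transcript of 566 nt, the trend of log2 ratio on length over all tested genes gave 1.25. Against that trend the log2 ratio of Npy was 0.22, with an adjusted p of 0.238 by an exact binomial test, so that Npy was not called. The value moved with the loess span of the trend, from 0.16 (adjusted p = 0.432) at a span of 0.1 to 0.31 (adjusted p = 0.0572) at 0.6, and was called at neither (exact binomial tests, spans chosen after the data were seen). The liver, erythroid and other marker sums given above also differed between the libraries, and their part in the ratio of Npy was not tested. Of the 16 chromaffin markers 9 were lower in replicate 2 and 1, Hand2, was higher, beside 22.2% and 13% of all genes tested.

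Adm was at 0.493 times (0.290 to 0.826) its level of replicate 1, a log2 ratio of -1.01 with an adjusted p of 0.0193 in Fisher's exact test. With 1390 nt it lay in a range of lengths where the trend was -0.03, and the ratio against the trend was -0.98 (adjusted p = 0.0287, exact binomial test). Under the TMM factors of edgeR the log2 ratio was -0.75 and no longer passed (adjusted p = 0.103, exact binomial test). Of the endothelium markers 4 of 7 were lower in replicate 2 and 1 was higher, with a median log2 ratio of -1.03. Of the 16 chromaffin markers 9 were lower and 1 was higher, with a median of -0.77. Under the TMM factors 2 endothelium markers were lower (median -0.76) and against the length trend 1 was (median -0.62), with 1 higher in both cases. Chromaffin markers had 7 lower and 2 higher under TMM (median -0.51), and 7 lower and 1 higher against the trend (median -0.62). Of all 11650 genes tested 22.2% were lower and 13% higher. TMM gave 1331 lower and 1973 higher, and the trend 1269 and 1502. The part of either cell type in the level of Adm was not tested.

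Penk, Gal, Cartpt and Resp18 did not pass the test, with adjusted p-values of 0.136, 0.150, 0.506 and 0.509 (Fisher's exact test). Penk was at 0.686 times (0.459 to 1.02) its level of replicate 1, and Resp18 at 1.21 times (0.818 to 1.80). Gal was at 1.99 times (0.940 to 4.60) and Cartpt at 1.5 times (0.648 to 3.77). These intervals hold a ratio of 1, and those of Gal and Cartpt are wide enough to hold more than a doubling. The lengths of Gal (788 nt) and Resp18 (748 nt) gave trend values of 0.78 and 0.86 in log2, so that the log2 ratio against the trend was 0.17 for Gal and -0.59 for Resp18. It was -0.48 for Penk, whose length was taken from Penk-201, and 0.45 for Cartpt.

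**Figure D3:**
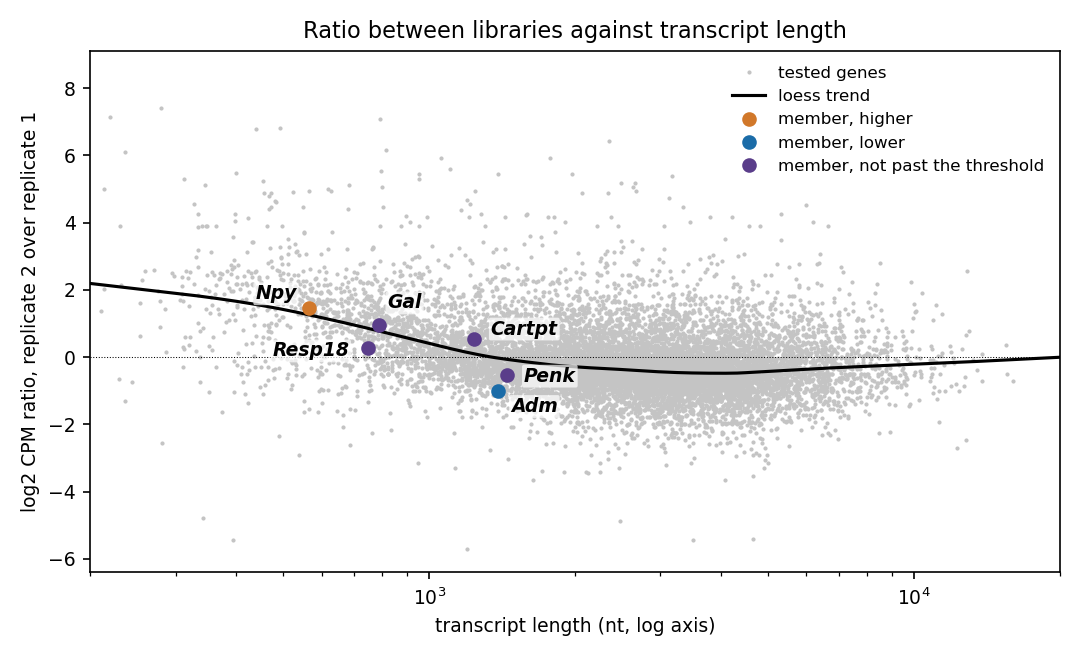
Log2 ratio of CPM, replicate 2 over replicate 1, against transcript length in nt on a log axis (the annotated transcript with most reads, or the model with most reads where none was annotated), for all tested genes between 200 and 20000 nt (grey, 68 genes lie outside) with their loess trend (line). Of the 6 tested peptide genes, Npy at 1.47 lies near the trend (1.25 at its length) and Adm at -1.01 lies below it (-0.03 at its length).

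The share of reads that fully matched an annotated transcript was compared in the same way where a gene had at least 20 reads in each replicate. Over all genes 79.8% of reads matched in replicate 1 and 73.9% in replicate 2. Npy had 87.9% (81.7 to 92.6) and 80.6% (77.2 to 83.6), Resp18 97.7% and 91.8%, and Adm 94.9% and 85.2%. Penk was the exception at 5.56% and 0%. Of the 4 genes tested, 0 were called for a difference between libraries, against 20.3% of all 6342 genes tested, and Npy alone had an unadjusted p below 0.05 (0.0356, adjusted p = 0.131, Fisher's exact test). Gal (100% and 96.4%) and Cartpt (88.9% and 94.7%) had too few reads. No gene of the 10 had enough reads for the test of isoform use, which covered 3040 genes. Counted over all 10 genes, 308 of 314 reads (98.1%, 95.9 to 99.3) in replicate 1 and 793 of 817 (97.1%, 95.7 to 98.1) in replicate 2 belonged to models with a whole annotated coding sequence. This measure was added after the values were seen, and a single read may end short of its model, which the counts do not show.

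**Figure D4:**
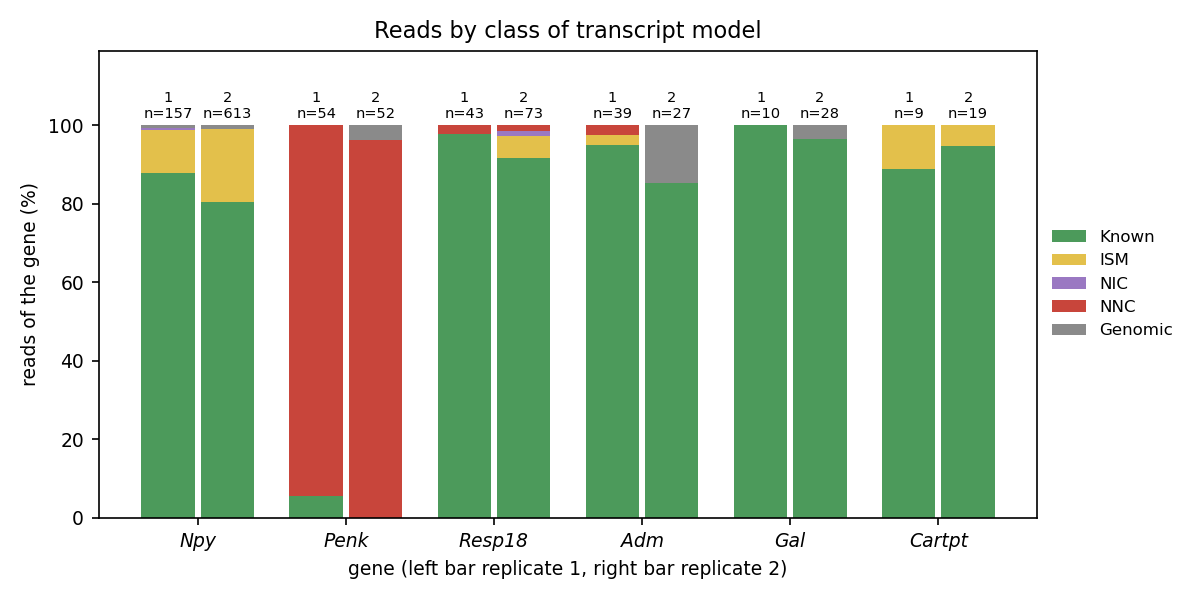
Share of the reads of each gene, in percent, by class of transcript model, with replicate 1 as the left bar and replicate 2 as the right bar and the number of reads above. Known models match an annotated transcript, ISM models match part of one, NIC models join annotated splice sites anew, NNC models hold an unannotated splice site and Genomic models lie within the gene, here as single exons. Penk is in the NNC class with 94.4% and 96.2% of its reads, and the other 5 genes are mostly Known.

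The precursors differ in how often they hold a letter pattern typical of amidation sites. A search of the coding sequences, in frame, for a glycine codon (GGN) followed by 2 codons of lysine or arginine found such a site in 6 of the 10 genes, and in 1368 of 6939 genes (19.7%) with 90 to 270 codons. There was 1 site in Npy, 1 in Gal and 1 in each splice form of Calca, 2 in Adm, 2 in Vip and 2 in Tac1, and none in Penk, Cartpt, Nppc and Resp18. The sites are shown with their 9 bases in capitals and the codon number of the glycine, for the genes with most reads and for Calca, whose forms differ (GENCODE M21, mm10, 5′ to 3′).
Npy, codon 65, end of neuropeptide Y: cagagatatGGCAAGAGAtccagccct
Gal, codon 62, end of galanin: ggcctcacaGGCAAGAGGgagttacaa
Adm, codon 42, end of the proadrenomedullin N-terminal peptide: ctaagtcgtGGGAAGAGGgaactacaa
Adm, codon 145, end of adrenomedullin: caaggctatGGCCGCCGGcgccggcgt
Calca-201, codon 120, end of CGRP: gaagccttcGGCCGCCGCcgcagggac
Calca-202, codon 117, end of calcitonin: gaagcacctGGCAAGAAAagggatgtg
A match describes these letters and does not show that the peptide was made. The lack of a match does not show that no peptide of a precursor is amidated. A glycine followed by only 1 basic codon was not searched for.

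The listed genes for the processing of such precursors, which include that of an inhibitor, were all read. Of 13 processing genes, 13 had reads in both libraries and were tested: 1 was higher in replicate 2, 8 were lower and 4 did not pass, with a median log2 ratio of -0.54. Among all genes 13% were higher and 22.2% lower in the same test. Under the TMM factors, which shift every log2 ratio by 0.26, 3 processing genes were higher and 3 lower. Against the length trend the counts were also 3 and 3, with a median of -0.06. Over all 11650 genes tested, TMM gave 1973 higher and 1331 lower, and the length trend 1502 and 1269. Cpe, carboxypeptidase E, stood at 785 CPM and 473 CPM, and Pam, the amidating enzyme, at 139 CPM and 95.9 CPM. Ctsl, a lysosomal protease that also cuts proenkephalin in granules, stood at 308 CPM and 391 CPM, the convertase gene Pcsk5 at 144 CPM and 107 CPM, and Pcsk1n, which encodes an inhibitor of the convertase of Pcsk1, at 99.1 CPM and 115.8 CPM. The convertase genes Pcsk1 (27 and 18 reads) and Pcsk2 (25 and 7 reads) were among the 8 lower. Their log2 ratios were -1.06 and -2.26, and -0.64 and -1.81 against the length trend. Of 8 genes of peptide-degrading enzymes, 7 were tested, 0 were higher and 3 lower, with a median of -1.07. Under the TMM factors 2 were lower, and against the length trend 1 was, with a median of -0.63. The oligopeptidase gene Thop1 was the most read of them, at 163 CPM and 111 CPM.

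Of 25 receptor and co-receptor genes for these and related peptides, 17 had reads. Among 9 tested, 0 were higher, 3 were lower and 6 did not pass, with a median log2 ratio of -0.37. Of all genes tested 13% were higher and 22.2% lower. Under the TMM factors 1 receptor gene was higher and 1 lower, and against the length trend 0 were higher and 0 lower. Over all 11650 genes tested, TMM gave 1973 higher and 1331 lower, and the length trend 1502 and 1269. Ramp2, the partner of the adrenomedullin receptor, stood at 66.8 CPM and 89.0 CPM, while its receptor gene Calcrl had 3 and 8 reads. The natriuretic peptide receptor genes Npr1 (94.8 CPM and 55.2 CPM) and Npr3 (26.9 CPM and 26.1 CPM) followed by their mean, and then Adcyap1r1, the PACAP receptor gene, at 26.9 CPM and 9.21 CPM. In replicate 1 alone Npr1 was above Ramp2, and Npr3 and Adcyap1r1 had 25 reads each. Of the receptors for neuropeptide Y, Npy1r had 1 and 4 reads and Npy2r 6 and 1, too few to test.

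Of 43 other peptide precursor genes, 16 had reads and 4 reached a mean of 10 CPM. Among 5 tested, 2 were higher in replicate 2, 0 were lower and 3 did not pass, with a median log2 ratio of -0.63. The 2 were Kng1 (430 CPM and 1508 CPM) and Agt (176 CPM and 435 CPM), which the liver secretes as kininogen and angiotensinogen. Of the liver markers 5 of 5 were higher, and of all genes tested 13%. The part of liver RNA in the ratios of Kng1 and Agt was not tested. Vgf, a granule protein of neurons and endocrine cells, stood at 19.4 CPM and 10.7 CPM, and Apln, the apelin precursor, at 17.2 CPM and 6.14 CPM, and neither passed the test. Npy, Penk, Resp18 and Adm were above Vgf and Apln in both libraries, while Gal and Cartpt were below them in replicate 1 and above them in replicate 2. This order was not tested and rests on few reads, with 18 and 14 for Vgf and 16 and 8 for Apln. The remaining 27 genes of that list had 0 reads in both libraries.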

How the data were processed

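Long reads of 2 adrenal libraries of 1 group were analysed. The authors deposited counts, the raw number of reads per transcript model with no normalization, and, per the file headers, the number of exons, the spliced length and the positions of each model (other units: bases and 1-based positions). Per the labels and file headers, the build was mm10, the annotation GENCODE M21, and added models carry TALON as source. The aligner and tool versions were not given in the sources used. Reads were summed per gene without spike-ins (1.57% and 2.50% of reads) and reads outside annotated genes (28698 and 68936). Log2 ratios used 0.5 added reads. Fisher's exact tests, and exact binomial tests against a scaling or a loess trend (span 0.3), were run in Python 3.11.15 with scipy 1.17.1 and statsmodels 0.14.6, and tested on simulated data. TMM factors came from edgeR 4.0.16 and size factors from DESeq2 1.42.0 in R 4.3.3. Sequences were taken from GENCODE M21 transcripts with biopython 1.88, and coding sequences stood in for the proteins. All 10 genes are named. Of other lists at most the 5 genes with the highest mean of 10 CPM or more are named. Exceptions are markers, receptors and the convertase genes Pcsk1 and Pcsk2, named for their role after their values were seen. The genes, lists, tests and alternatives were chosen with earlier results of these data known. All 18 annotated models of these genes had the exons of GENCODE M21.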

Additional observations from a re-analysis of the deposited data

How the results depend on the processing

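No paired analysis was possible because only 1 group was sampled, with no conditions to pair. The sum of the 10 genes, 483 CPM, ranged from 338 to 627 CPM with one library left out. With the TMM factors or the DESeq2 size factors Adm was no longer called, so that 0 genes were lower (log2 ratio -0.75 and -0.76), by the construction of these factors, which add 0.26 to every log2 ratio. The split of all calls moved from 1510 higher and 2581 lower to 1973 and 1331 with TMM. Against the length trend, 0 genes were called higher (Npy 0.22), and Resp18 turned from 0.27 to -0.59, not called in either. Of all 11650 genes tested, 1502 were higher and 1269 lower against this trend. Loess spans of 0.1 and 0.6, chosen with the data in view, also gave 0 genes called higher, with Npy at 0.16 and 0.31 and Resp18 at -0.62 and -0.54. Against the reads of the chromaffin markers, 4 genes were called higher (Npy, Gal, Cartpt and Resp18) and 0 lower, and Penk turned from -0.54 to 0.44, not called in either. Calls of higher were common under this setting, with 5334 of all 11650 genes tested called higher and 182 lower. This denominator itself was lower in replicate 2, with a log2 ratio of -0.98. The calls of Npy and Adm remained with annotated models only, without Genomic models and without a read minimum. Adding 1 read enters the log2 ratio alone, not the test. Of 41 log2 ratios under the other settings that enter the test, these spans aside, 32 kept direction and side of the threshold. With all reads as the denominator 10 of 10 mean levels moved by less than 1 SD of the libraries, and leaving out a library moves a mean of 2 by less than that in any case. For the share of matching reads and isoform use 0 genes were called under each alternative. With 28 reads or fewer in a library, Gal and Cartpt allow wide ratios, and 4 genes with 3 or fewer reads could not be tested.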
